A study of Mus musculus with 8 samples.

Results

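The expression of 10 genes that mark T helper 17 (Th17) cells was followed in mouse spleen CD4 T cells that did or did not express the transcription factor KLF2. They were taken by symbol from a list of receptors, regulators and cytokines, namely Il23r, Il1r1, Il17re, Ccr6, Rora, Ahr, Tmem176a, Tmem176b, Il17a and Il17f. All 10 were found among the 25124 genes of the deposited exon count table, and all 10 passed the filter on low counts that left 19146 genes. The mice carried the reporter alleles KLF2(GFP) and FOXP3(RFP), so every group shared both and no group lacked a gene. Splenic cells negative for FOXP3, the regulatory T cell factor, and high for CD44, a surface protein of activated and memory T cells, were sorted into KLF2+ and KLF2- fractions. The 4 groups were stimulated KLF2+, unstimulated KLF2+, stimulated KLF2- and unstimulated KLF2- cells, each with 2 libraries. Stimulation meant 48 h with 2.5 micrograms/mL anti-CD3 and 1.25 micrograms/mL anti-CD28, antibodies to the T cell receptor complex and to a costimulatory receptor, and the other cells had 48 h with neither. Age, sex and strain of the mice, pooling of animals, and whether replicates were separate animals or cultures are not given in the sources used here.

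Th17 cells are helper T cells of mucosal and skin defence that are driven in part by the nuclear receptor RORα and secrete IL-17A and IL-17F. IL-23 and IL-1β act through IL23R and IL1R1 to keep and activate them, and CCR6 draws them toward tissues that make its ligand CCL20. A memory CD4 pool in the spleen holds such cells beside other helper types, and the KLF2 sort divides that pool by a factor of resting, recirculating T cells.

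The libraries differed in depth and in reads that fell on genes T cells are not known to use. Exon reads came to 21.0 and 36.6 M for the stimulated KLF2+ group, 8.27 and 17.8 M for the unstimulated KLF2+ group, 4.53 and 2.99 M for the stimulated KLF2- group and 7.34 and 8.62 M for the unstimulated KLF2- group (M, mega). Read density over 1471 olfactory and vomeronasal receptor genes, multiplied by the exon length of the table, came to between 0.402% and 7.08% of exon reads in KLF2+ libraries and between 7.12% and 20.2% in KLF2- libraries. Each comparison was therefore also fitted after that density was subtracted in proportion to exon length, called background subtraction here. Stimulated KLF2- replicate 4 stood apart: it was the shallowest, its background was the 20.2%, and Irf4, a factor induced through the T cell receptor, was at 12.6 CPM there against 83.8 CPM in replicate 3 of its group. CPM are reads per gene at an equal library size, set with TMM, a normalisation that takes most genes as unchanged. The fit after background subtraction also took its TMM factors from genes of at least 50 CPM alone. Its values therefore reflect a change of scaling as well as of reads. Klf2 itself had 303 and 379 CPM in unstimulated KLF2+ cells and 41.0 and 65.0 CPM in unstimulated KLF2- cells. After stimulation Klf2 had 93.5 and 139 CPM in KLF2+ cells and 46.5 and 75.8 CPM in KLF2- cells, a log2 fold change of 0.93 ± 0.32 (SE; edgeR adjusted p = 0.0236) that was -0.38 (adjusted p = 0.402) after background subtraction. Cd4 lay between 475 and 1046 CPM and Foxp3 between 5.23 and 21.3 CPM over the 8 libraries, and all 9 genes of a CD4 T cell list (Cd3d, Cd3e, Cd3g, Cd4, Cd5, Cd28, Lck, Thy1 and Cd44) had reads in every library. These 9 summed to 6296 and 6632 CPM in stimulated KLF2+ against 2562 and 2504 CPM in stimulated KLF2- cells. Unstimulated, the sums were 4685 and 6936 against 3504 and 3843 CPM. Of the 9, 8 were higher in stimulated KLF2+ cells (edgeR adjusted p under 0.05), beside 35.5% of all genes, and 0 were lower. Unstimulated, 1 was higher, Thy1, beside 1.07%. After background subtraction 2 were higher and 2 lower stimulated, beside 16% and 38.5%, and 0 were called unstimulated.

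In unstimulated cells, 6 of the 10 Th17 genes were lower in KLF2+ than in KLF2- cells. They were the cytokine receptors Il23r, Il1r1 and Il17re, the chemokine receptor Ccr6 and the membrane proteins Tmem176a and Tmem176b, with levels 3.12-fold to 5.30-fold lower. None was higher, and Rora, Ahr, Il17a and Il17f did not pass the test. Of all 19146 genes tested, 2.32% were called in this comparison at an adjusted p under 0.05, 1.07% as higher and 1.25% as lower. In stimulated cells 7 of the 10 were lower in KLF2+ cells, these 6 and Rora, and Ahr was higher. There the background was 75.2% of genes called, 35.5% as higher and 39.7% as lower, so a call by itself says little of a gene in the stimulated cells. After background subtraction 6 of 9 tested genes were lower in unstimulated cells (4% of all genes called, 0.975% higher and 3.02% lower) and 7 of 9 in stimulated cells (54.5% called, 16% higher and 38.5% lower), with none higher. With TMM factors taken from genes of at least 50 CPM, 2280 genes were higher and 11169 lower in stimulated cells, against 6799 and 7597, and 127 were higher and 335 lower in unstimulated cells, against 204 and 240. Counted by libraries alone, both KLF2+ libraries lay below both KLF2- libraries for 7 of the 10 genes in each state, beside 32.8% of all genes unstimulated and 47.2% stimulated. They lay above for 2 unstimulated, beside 26.2%, and for 1 stimulated, beside 43.2%. The median log2 fold change of the 10 genes was -1.68 in unstimulated cells against -0.11 for all genes, and -1.30 in stimulated cells against -0.19 for all genes. The 10 genes were chosen with earlier results of these data known, so their counts and medians beside all genes are descriptive only. These are bulk samples, in which fewer cells of a type and less RNA per cell cannot be told apart.

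**Figure D1:**
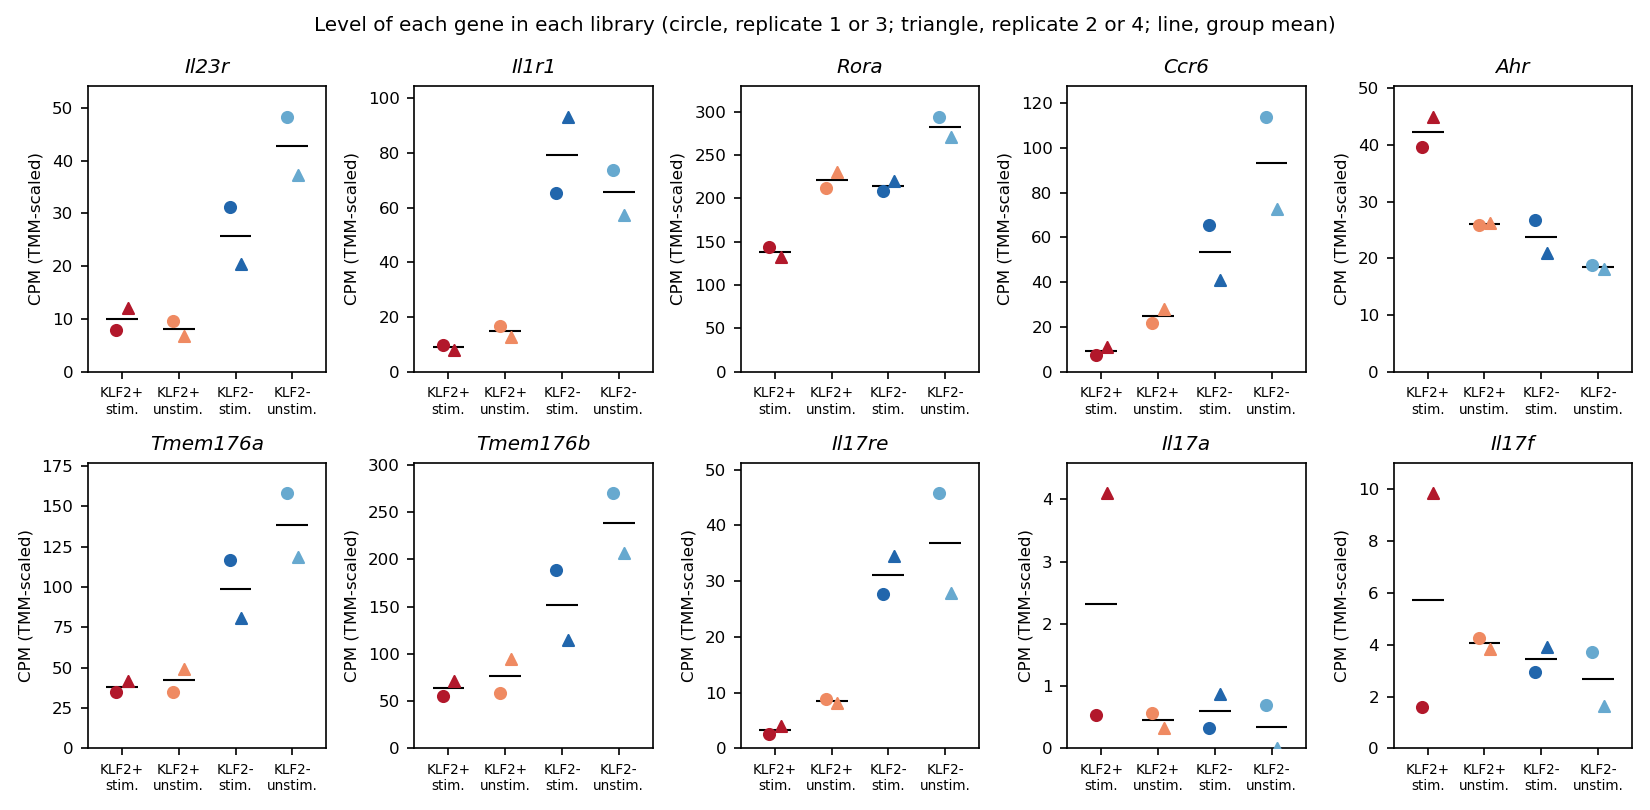
Level of each of the 10 genes in CPM (vertical axes, linear from 0) in the 8 libraries, grouped along the horizontal axis by population and stimulus. Circles are replicates 1 or 3, triangles are replicates 2 or 4 and lines are means of 2. For Il23r, Il1r1, Il17re, Ccr6, Tmem176a and Tmem176b every KLF2+ library lies below every KLF2- library, and for Il17a and Il17f 1 stimulated KLF2+ library lies above the rest.

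The calls in unstimulated cells depended on having both replicates. Without unstimulated KLF2+ replicate 2 none of the 6 passed, without KLF2- replicate 3 only Il1r1 did, without KLF2- replicate 4 only Il1r1 and Il17re did, and without KLF2+ replicate 1 Il23r, Il1r1, Tmem176a and Il17re did. In those 4 fits the genes called over the whole table numbered 33, 69, 63 and 1692, against 444 with all libraries. Each of the 6 log2 fold changes was at -1.27 or lower in all 16 alternative fits, and all 6 were called in each fit that kept every library.

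Il23r encodes the receptor subunit specific to IL-23. It had 8.01 and 12.1 CPM in stimulated KLF2+ cells, 9.57 and 6.69 CPM in unstimulated KLF2+ cells, 31.2 and 20.5 CPM in stimulated KLF2- cells, and 48.3 and 37.3 CPM in unstimulated KLF2- cells. All 4 KLF2+ libraries lay below all 4 KLF2- libraries, in which the stimulated ones were the lower. The log2 fold change of KLF2+ over KLF2- cells was -2.41 ± 0.35 (SE; edgeR adjusted p = 0.00882) unstimulated and -1.36 ± 0.34 (edgeR adjusted p = 0.00547) stimulated. After background subtraction these were -2.97 ± 0.40 (adjusted p = 0.0125) and -2.47 ± 0.39 (adjusted p = 0.00267). Without stimulated KLF2- replicate 3 the stimulated value was -0.96 with an adjusted p of 0.0505, and without replicate 4, the library that stood apart, it was -1.61 with an adjusted p of 0.0062.

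Il1r1 encodes the signalling receptor for IL-1. It had 9.82 and 8.07 CPM in stimulated KLF2+ cells, 16.9 and 12.7 CPM in unstimulated KLF2+ cells, 65.4 and 93.2 CPM in stimulated KLF2- cells, and 73.7 and 57.4 CPM in unstimulated KLF2- cells. The highest KLF2+ library, at 16.9 CPM, lay well below the lowest KLF2- library, at 57.4 CPM. The KLF2+ level was 4.44-fold lower in unstimulated cells (log2 fold change -2.15 ± 0.27, SE; edgeR adjusted p = 0.00455) and 8.88-fold lower in stimulated cells (-3.15 ± 0.28; edgeR adjusted p = 0.000217). The size of the stimulated difference depended on the processing, with log2 fold changes of -4.53 ± 0.38 after background subtraction (adjusted p = 0.000881) and -4.38 with TMM factors from genes of at least 50 CPM (adjusted p = 0.000376). Il1r1 held the lowest adjusted p of the 10 genes in both comparisons. Its span overlaps Gm38070, an unclassified model on the same strand, over 6480 bases, and reads there could not be separated.

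Il17re encodes the chain that pairs with IL17RA to bind IL-17C. It had 2.64 and 3.93 CPM in stimulated KLF2+ cells, 8.78 and 8.22 CPM in unstimulated KLF2+ cells, 27.7 and 34.4 CPM in stimulated KLF2- cells, and 45.8 and 27.8 CPM in unstimulated KLF2- cells. The stimulated KLF2+ libraries were the lowest of the 8, and both KLF2+ groups lay below both KLF2- groups. The log2 fold change of KLF2+ over KLF2- cells was -2.11 ± 0.34 (SE; edgeR adjusted p = 0.0125) unstimulated and -3.22 ± 0.36 (edgeR adjusted p = 0.000252) stimulated, a level 9.32-fold lower. The stimulated value was -4.59 ± 0.48 after background subtraction (adjusted p = 0.00115) and -4.44 with the scaling from genes of at least 50 CPM (adjusted p = 0.000445). In stimulated KLF2+ replicate 1 the 35 reads of Il17re were 3.37 times the background expected for its exon length.

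Ccr6, the receptor for CCL20, had 7.33 and 11.2 CPM in stimulated KLF2+ cells, 21.6 and 27.8 CPM in unstimulated KLF2+ cells, 65.6 and 41.2 CPM in stimulated KLF2- cells, and 114 and 72.9 CPM in unstimulated KLF2- cells. The groups followed each other without overlap, stimulated KLF2+ lowest and unstimulated KLF2- highest. KLF2+ cells held 3.76-fold less in the unstimulated state (log2 fold change -1.91 ± 0.33, SE; edgeR adjusted p = 0.0154) and 5.73-fold less in the stimulated state (-2.52 ± 0.34; edgeR adjusted p = 0.000359). The stimulated difference was called in all 16 alternative fits and ranged between -3.92 and -2.08, with -3.79 ± 0.33 after background subtraction.

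**Figure D2:**
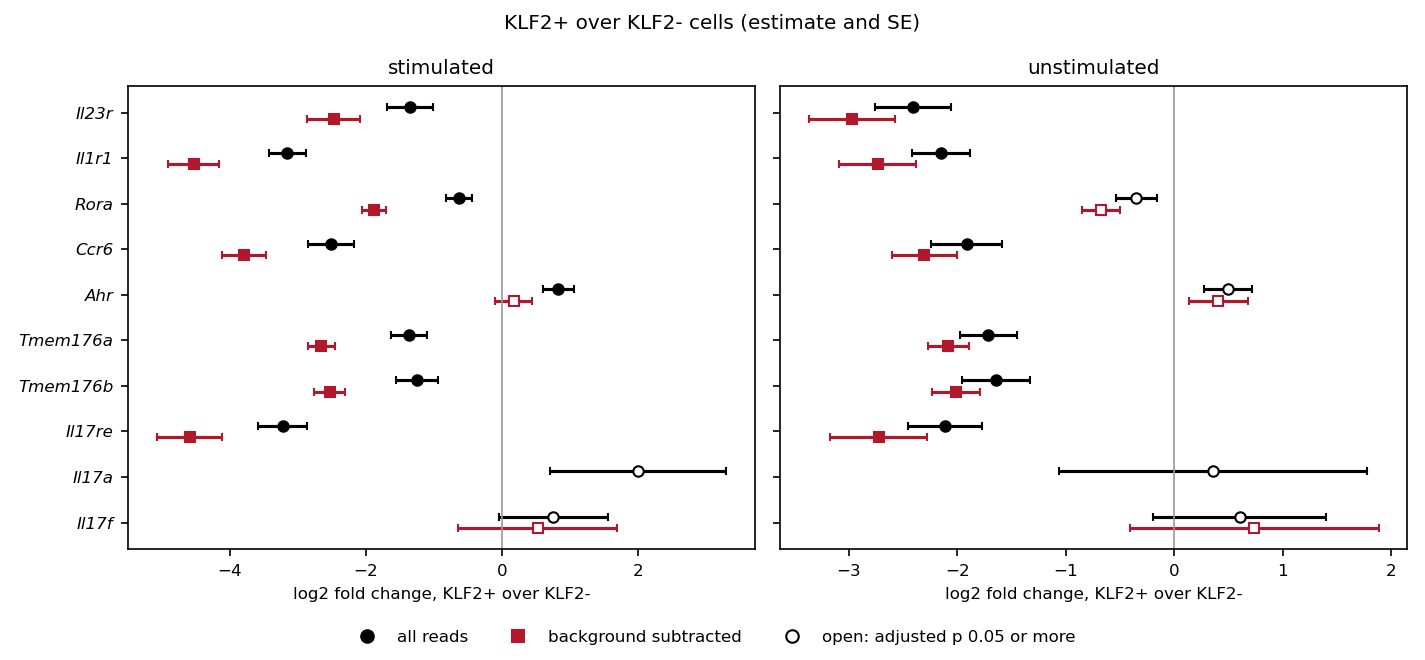
Log2 fold change of KLF2+ over KLF2- cells (horizontal axes) for each of the 10 genes, stimulated on the left and unstimulated on the right, each point with its standard error. Black circles use all reads, and red squares use background-subtracted reads with TMM factors from genes of at least 50 CPM. Open symbols have an adjusted p of 0.05 or more. The 6 receptor and membrane protein genes lie left of 0 in both panels, and the red squares lie further left than the black circles; Il17a was not tested after subtraction.

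The sequences just upstream of the counted transcripts of Il23r, Il1r1 and Ccr6 are shown because these receptors were lower in KLF2+ cells in both states and are the genes through which Th17 cells sense IL-23, IL-1 and CCL20. Each is the 250 bases before the transcript start, from RefSeq on GRCm38.p6, read 5′ to 3′ on the strand of the gene. Capitals mark AGGTCA on either strand (TGACCT where it lies on the other), the half-site that ROR nuclear receptors bind.
Il23r, chr6:67491856-67492105, minus strand: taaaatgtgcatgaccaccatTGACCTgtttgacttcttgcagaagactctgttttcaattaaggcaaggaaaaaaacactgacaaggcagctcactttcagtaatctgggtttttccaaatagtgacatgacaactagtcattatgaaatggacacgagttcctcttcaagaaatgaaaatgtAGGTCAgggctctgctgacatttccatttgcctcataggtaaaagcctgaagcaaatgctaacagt
Il1r1, chr1:40224830-40225079, plus strand: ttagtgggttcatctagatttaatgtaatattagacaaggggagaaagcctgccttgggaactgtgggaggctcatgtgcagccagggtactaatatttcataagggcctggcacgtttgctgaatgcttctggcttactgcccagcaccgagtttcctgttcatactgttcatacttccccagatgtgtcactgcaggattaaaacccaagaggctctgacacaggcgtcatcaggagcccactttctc
Ccr6, chr17:8235793-8236042, plus strand: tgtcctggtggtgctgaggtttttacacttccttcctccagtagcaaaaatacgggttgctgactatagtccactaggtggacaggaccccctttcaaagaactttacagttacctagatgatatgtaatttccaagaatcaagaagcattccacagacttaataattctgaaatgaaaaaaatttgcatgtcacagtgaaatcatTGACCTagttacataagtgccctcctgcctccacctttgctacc

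The Il23r window held the half-site at bases 229 to 224 before the start, on the other strand, and at bases 66 to 61 on the gene's strand. The Ccr6 window held it at bases 44 to 39 on the other strand, and the Il1r1 window did not hold these letters. Windows at the counted transcript start were found for 8 of the 10 genes, all but Rora and Ahr. The half-site was in 4 of the 8, those of Il23r, Ccr6, Il17a and Il17f, against 14.0% of 32851 RefSeq windows of the same length. The 5 letters CACCC, a core that KLF factors bind, were in 4 of the 8 on either strand, those of Tmem176b, Il17re, Il17a and Il17f, against 52.0% of all windows. The AHR core GCGTG was in 0 of the 8 against 28.2% of all windows. No base of these motifs is shared between them, and a match describes letters only.

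Rora, which encodes the nuclear receptor RORα, was high in every group. It had 143 and 133 CPM in stimulated KLF2+ cells, 212 and 231 CPM in unstimulated KLF2+ cells, 209 and 221 CPM in stimulated KLF2- cells, and 294 and 271 CPM in unstimulated KLF2- cells. Unstimulated KLF2+ and stimulated KLF2- libraries overlapped, with stimulated KLF2+ below them and unstimulated KLF2- above. The log2 fold change of KLF2+ over KLF2- cells was -0.35 ± 0.19 (SE; edgeR adjusted p = 0.331) unstimulated and -0.64 ± 0.19 (edgeR adjusted p = 0.0127) stimulated. The stimulated value was called in 11 of 16 alternative fits and missed without either stimulated KLF2+ replicate (adjusted p = 0.115 without replicate 1, 0.191 without replicate 2). After background subtraction it was -1.88 ± 0.18 (adjusted p = 0.000993). The gene overlaps the antisense model Gm15511, and reads of the 2 strands cannot be told apart where the strand setting of the count is not given.

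Ahr encodes the aryl hydrocarbon receptor, a ligand-gated factor that Th17 cells use to make IL-22. It ran against the receptors in CPM, with 39.6 and 45.0 CPM in stimulated KLF2+ cells, 25.9 and 26.3 CPM in unstimulated KLF2+ cells, 26.7 and 20.9 CPM in stimulated KLF2- cells, and 18.8 and 18.2 CPM in unstimulated KLF2- cells. The stimulated KLF2+ libraries were the highest and the unstimulated KLF2- libraries the lowest. The log2 fold change of KLF2+ over KLF2- cells was 0.50 ± 0.22 (SE; edgeR adjusted p = 0.264) unstimulated and 0.83 ± 0.22 (edgeR adjusted p = 0.00808) stimulated. Without stimulated KLF2+ replicate 2 the stimulated value was 0.77 with an adjusted p of 0.0696. It was 0.17 ± 0.28 (adjusted p = 0.614) after background subtraction, -0.35 with TMM factors from genes of at least 50 CPM, and between -0.59 and -0.51 in the limma fits of TPM. In stimulated KLF2- replicate 4 the 95.5 reads of Ahr were 1.96 times its expected background, so the direction of Ahr between populations was not settled by these libraries.

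Tmem176a and Tmem176b encode paired membrane-spanning proteins that are abundant in Th17 cells. They lie head to head on opposite strands with transcript starts 346 bases apart on chromosome 6. Tmem176a had 34.9 and 41.6 CPM in stimulated KLF2+ cells, 35.1 and 49.1 CPM in unstimulated KLF2+ cells, 117 and 80.6 CPM in stimulated KLF2- cells, and 158 and 119 CPM in unstimulated KLF2- cells. Tmem176b had 55.7 and 71.7 CPM in stimulated KLF2+ cells, 58.3 and 94.2 CPM in unstimulated KLF2+ cells, 189 and 115 CPM in stimulated KLF2- cells, and 270 and 207 CPM in unstimulated KLF2- cells. For both genes the KLF2+ libraries all lay below the KLF2- libraries, while the 2 KLF2+ groups overlapped. The log2 fold change of KLF2+ over KLF2- cells for Tmem176a was -1.71 ± 0.27 (SE; edgeR adjusted p = 0.0109) unstimulated and -1.37 ± 0.26 (edgeR adjusted p = 0.0015) stimulated. For Tmem176b it was -1.64 ± 0.31 (SE; edgeR adjusted p = 0.0273) unstimulated and -1.25 ± 0.31 (edgeR adjusted p = 0.00546) stimulated. Both stimulated values were called in all 16 alternative fits, and after background subtraction they were -2.65 ± 0.20 and -2.53 ± 0.23 (adjusted p = 0.000746 and 0.000953). Each annotated gene overlaps the counted transcript of the other over a short stretch, 14 bases for Tmem176a and 219 bases for Tmem176b, so a few reads could belong to the partner.

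The cytokines themselves were scarcely read. Il17a had 7 and 93.5 reads in stimulated KLF2+ cells, 5 and 5 reads in unstimulated KLF2+ cells, 1.5 and 4 reads in stimulated KLF2- cells, and 5.5 and 0 reads in unstimulated KLF2- cells. Stimulated KLF2+ replicate 2 was at 37.1 times the background reads expected for the exon length, stimulated KLF2+ replicate 1 was at 1.56 times, and the other 6 libraries were under 1 time. Il17f had 21 and 225.5 reads in stimulated KLF2+ cells, 38.5 and 57.5 reads in unstimulated KLF2+ cells, 17.5 and 17.5 reads in stimulated KLF2- cells, and 32 and 16 reads in unstimulated KLF2- cells. The same library was the highest, at 88.8 times background, against 4.64 times in the other stimulated KLF2+ library, 3.81 and 7.13 times in unstimulated KLF2+ cells and between 1.51 and 3.23 times in KLF2- cells. In stimulated cells the log2 fold change of KLF2+ over KLF2- cells was 2.00 ± 1.29 (SE; edgeR adjusted p = 0.179) for Il17a and 0.75 ± 0.80 (edgeR adjusted p = 0.405) for Il17f. Without stimulated KLF2+ replicate 2 these were -0.087 and -1.06, so 1 library decided both. In unstimulated cells the values were 0.36 ± 1.42 (edgeR adjusted p = 0.902) and 0.61 ± 0.80 (edgeR adjusted p = 0.676), and a difference in Il17a was not detectable at this depth.

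**Figure D3:**
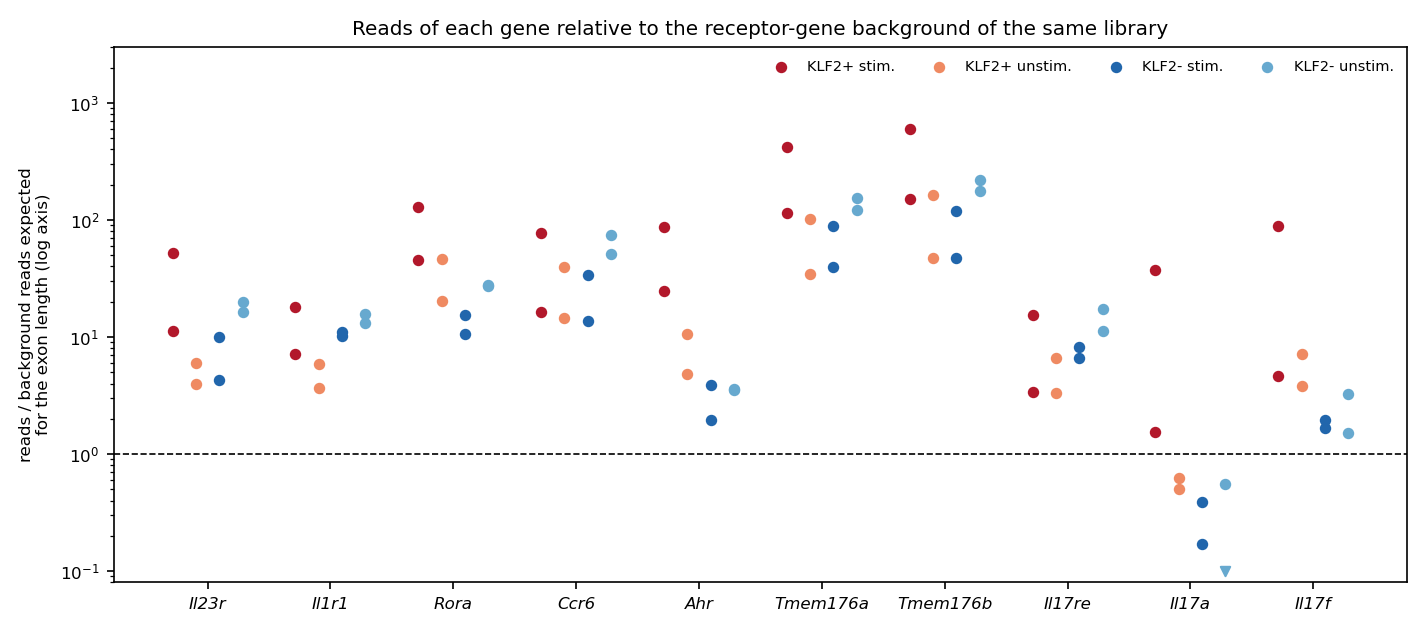
Reads of each gene divided by the background reads expected for its exon length in the same library (vertical axis, log scale), in the order of the groups in the legend. Each point is 1 library, the dashed line is a ratio of 1, and the downward triangle is a library with 0 reads of Il17a. Tmem176b and Tmem176a lie furthest above the line, and Il17a lies under it in 6 of 8 libraries, with stimulated KLF2+ replicate 2 at 37.1.

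Levels were compared between genes per length, in the deposited TPM, transcripts scaled to a common sum, of which each column summed to between 503794 and 523430. In unstimulated KLF2- cells the order was Tmem176b at 249 ± 51.9 TPM (SD, n = 2 here and below), Tmem176a at 173 ± 38.8 TPM and Ccr6 at 79.6 ± 26.3 TPM. Rora followed at 34.3 ± 2.72 TPM, then Il23r at 22.8 ± 4.61 TPM, Il1r1 at 18.3 ± 3.58 TPM and Il17re at 18.1 ± 6.58 TPM, and the libraries of these last 3 receptors overlapped. Ahr was at 4.45 ± 0.205 TPM, Il17f at 3.02 ± 1.73 TPM and Il17a at 0.366 ± 0.518 TPM. In unstimulated KLF2+ cells Tmem176b was at 60.2 ± 6.84 TPM and Tmem176a at 40.3 ± 0.481 TPM, and Rora at 21.0 ± 3.48 TPM stood above Ccr6 at 16.2 ± 0.798 TPM. The 3 cytokine receptors lay between 3.27 and 3.50 TPM there, near Il17f at 3.64 ± 1.14 TPM and below Ahr at 4.93 ± 1.04 TPM. Ahr at 4.93 and 4.45 TPM was thus within the spread of its replicates between unstimulated KLF2+ and KLF2- cells, while the receptors were not.

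In KLF2+ cells 4 of the 10 genes changed with 48 h of stimulation: Ccr6, Il17re and Rora fell and Ahr rose, on a background of 37.1% of genes called. Genes called lower made up 17.4% and genes called higher 19.7% of those tested, so 3 and 1 of 10 lie near the shares of all genes. With the scaling from genes of at least 50 CPM 2167 genes rose and 5667 fell, against 3771 and 3325. Both stimulated libraries lay below both unstimulated ones for 4 of the 10, beside 40.1% of all genes, and above for 1, beside 35.2%. Ccr6 averaged 9.27 ± 2.75 CPM in stimulated and 24.7 ± 4.4 CPM in unstimulated KLF2+ cells (SD, n = 2 each), a log2 fold change of -1.41 ± 0.33 (SE; edgeR adjusted p = 0.0124). It was called in all 17 alternative fits. Il17re averaged 3.28 ± 0.907 CPM in stimulated and 8.50 ± 0.399 CPM in unstimulated KLF2+ cells (log2 fold change -1.35 ± 0.35, SE; edgeR adjusted p = 0.0172). Rora averaged 138 ± 7.50 CPM in stimulated and 222 ± 13.3 CPM in unstimulated KLF2+ cells (-0.68 ± 0.19, SE; edgeR adjusted p = 0.0231). Ahr averaged 42.3 ± 3.80 CPM in stimulated and 26.1 ± 0.293 CPM in unstimulated KLF2+ cells (0.70 ± 0.22, SE; edgeR adjusted p = 0.0347), and was called in 5 of 17 alternative fits. After background subtraction Ahr was at 0.36 ± 0.27 (adjusted p = 0.332) and 5 of 9 tested genes were lower, with Tmem176a at -0.64 ± 0.19 (adjusted p = 0.0393) and Tmem176b at -0.76 ± 0.22 (adjusted p = 0.0374) added, where 29.1% of all genes were called, 12.7% higher and 16.4% lower. Which genes passed varied with the library left out. Over the fits that left out 1 library, Ccr6 ranged between -1.76 and -1.14 and Il17re between -1.67 and -1.10. In the same fits Rora ranged between -0.77 and -0.58 and Ahr between 0.61 and 0.79. Il1r1 did not pass, at -0.72 ± 0.27 (SE; edgeR adjusted p = 0.0553), nor did Il23r at 0.32 ± 0.34 (edgeR adjusted p = 0.442). Il17a at 2.41 ± 1.22 (edgeR adjusted p = 0.132) and Il17f at 0.51 ± 0.77 (edgeR adjusted p = 0.594) again rested on replicate 2.

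In KLF2- cells 0 of the 10 genes were called, nor were any of the 19146 genes tested (0%). At an unadjusted p under 0.05 stood 1 of the 10, Ccr6, and 2802 of all genes, and DESeq2 called 0 of the 10 and 0.631% of genes. Ccr6 averaged 53.4 ± 17.3 CPM in stimulated and 93.4 ± 29.0 CPM in unstimulated KLF2- cells (SD, n = 2 each; log2 fold change -0.80 ± 0.32, SE; edgeR adjusted p = 0.309). Il23r was at -0.73 ± 0.33 and Tmem176b at -0.65 ± 0.31 on the same scale (edgeR adjusted p = 0.348 and 0.359), and Il1r1 at 0.27 ± 0.25 (edgeR adjusted p = 0.564). For 5 of the 10 genes both stimulated libraries lay below both unstimulated ones, beside 30.2% of all genes, and for Ahr they lay above, beside 31.2%. Leaving out replicate 4 of the stimulated group, the library in which Irf4 was low, gave -0.51 for Ccr6, -0.46 for Il23r and -0.0067 for Il1r1, and again 0 of the 10 genes called.

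**Figure D4:**
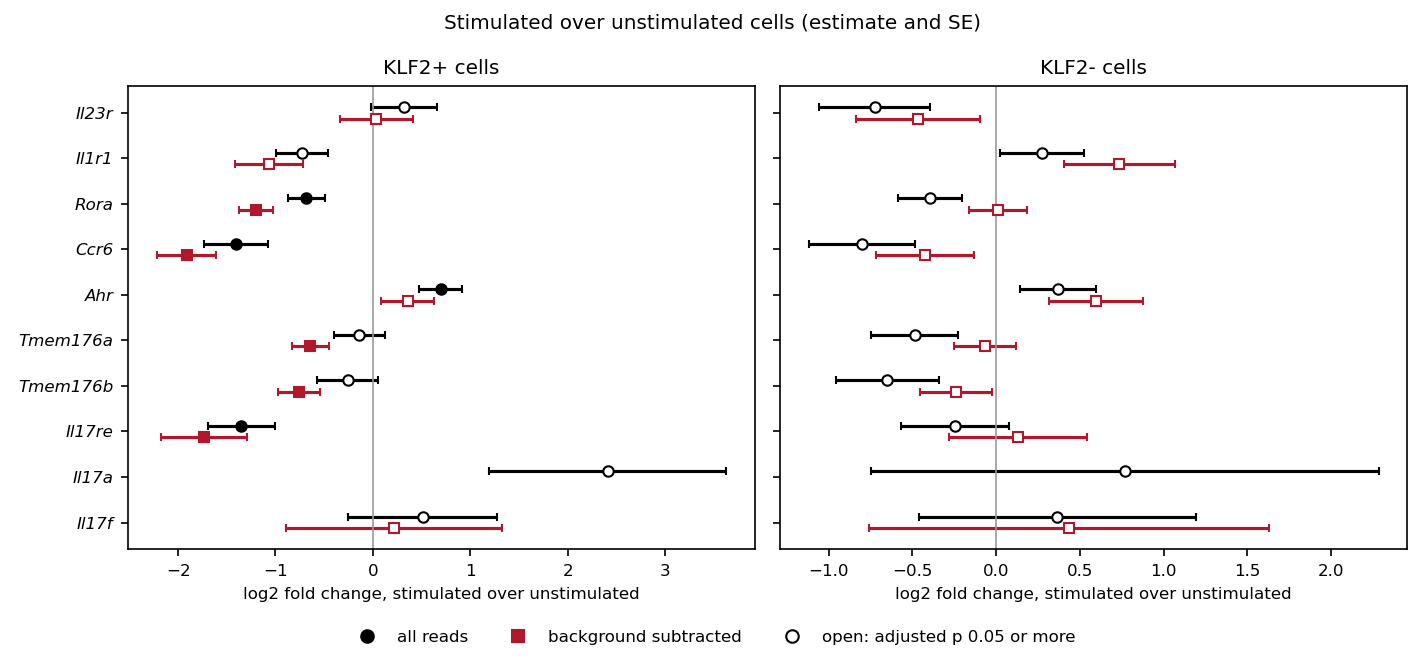
Log2 fold change of stimulated over unstimulated cells (horizontal axes) for each of the 10 genes, KLF2+ cells on the left and KLF2- cells on the right, with standard errors. Black circles use all reads, and red squares use background-subtracted reads with TMM factors from genes of at least 50 CPM. Open symbols have an adjusted p of 0.05 or more. Ccr6, Il17re and Rora lie left of 0 with filled symbols in KLF2+ cells, and every symbol in KLF2- cells is open.

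The difference between the 2 responses, KLF2+ minus KLF2-, passed for 0 of the 10 genes, where 35.8% of all genes tested were called, 20.3% above 0 and 15.5% below (1017 and 5102 genes with the scaling from genes of at least 50 CPM, against 3890 and 2965). At an unadjusted p under 0.05 stood Il1r1 and Il17re, 2 of the 10, against 10007 of all genes, and DESeq2 called 0 of the 10 and 36.2% of genes. Il1r1 differed by -0.999 ± 0.37 (SE; edgeR adjusted p = 0.0564), Il17re by -1.11 ± 0.47 (edgeR adjusted p = 0.0841) and Il23r by 1.05 ± 0.47 (edgeR adjusted p = 0.0985). After background subtraction Rora was lower by this measure, at -1.21 ± 0.24 (adjusted p = 0.0372), where 11.8% of all genes were called, 3.58% above 0 and 8.23% below. With the scaling from genes of at least 50 CPM 4 of the 10 passed, all lower: Il1r1 at -1.94, Rora at -1.19, Ccr6 at -1.45 and Il17re at -2.03 (adjusted p = 0.0278, 0.0245, 0.0319 and 0.0309). The limma fits of TPM gave 1 to 4 of the 10, all lower, Rora in each. Whether the fall of Ccr6, Il17re and Rora differed between the populations thus depended on the processing.

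Of 11 further transcription factors of the Th17 programme, 0 were higher and 1 was lower in KLF2+ cells in the unstimulated state. Of all genes 1.07% and 1.25% were. After background subtraction 0 were higher and 3 lower, beside 0.975% and 3.02%. In stimulated cells 8 were higher and 1 was lower in KLF2+ cells, beside 35.5% and 39.7%. After subtraction 3 were higher and 2 lower there, beside 16% and 38.5%. With all reads Batf, an AP-1 factor needed early in Th17 differentiation, had a log2 fold change of 3.06 ± 0.25 in stimulated cells and Hif1a, the hypoxia factor, one of 2.32 ± 0.27 (SE; edgeR adjusted p = 0.000217 and 0.000276). In the response of KLF2+ cells 8 of 11 rose and none fell, beside 19.7% of all genes called higher, led by Bhlhe40 at a log2 fold change of 2.86 ± 0.27 (SE; edgeR adjusted p = 0.000329), Batf at 2.32 ± 0.24 (adjusted p = 0.000564) and Hif1a at 2.13 ± 0.26 (adjusted p = 0.00103). The response differed between populations for 7 of the 11, all with values above 0 (KLF2+ minus KLF2-), beside 20.3% of all genes, and for 4 after subtraction, beside 3.58%.

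Of 14 partner and related cytokine receptors, 0 were called in unstimulated cells and their median log2 fold change was -0.02. After background subtraction 1 of 13, Il17rd, was lower there (edgeR adjusted p = 0.0204), beside 3.02% of all genes, and the median was -0.265. In stimulated cells 4 were higher and 3 lower in KLF2+ cells, beside 35.5% and 39.7% of all genes. After background subtraction 1 was higher and 6 lower of 13, beside 16% and 38.5%. With all reads Il21r, the receptor for IL-21, was at 2.11 ± 0.24 and Il12rb1, the chain that IL23R pairs with, at 2.30 ± 0.45 (SE; edgeR adjusted p = 0.000276 and 0.00155). After background subtraction Il21r was at 0.85 (adjusted p = 0.0031) and Il12rb1 at 1.19, which did not pass (adjusted p = 0.06). Il17rd, a relative of IL17RE, was at -3.96 ± 0.58 (SE; edgeR adjusted p = 0.00045). Il12rb1 had 259 and 254 CPM in stimulated KLF2+ cells, 28.1 and 25.0 CPM in unstimulated KLF2+ cells, 78.5 and 25.0 CPM in stimulated KLF2- cells, and 55.1 and 32.3 CPM in unstimulated KLF2- cells. The stimulated KLF2+ libraries were the highest of the 8 in CPM for this shared chain. In the response of KLF2+ cells 3 of the 14 rose and 6 fell, beside 19.7% and 17.4% of all genes. The 3 were the IL-1 decoy receptor Il1r2 at 4.25 ± 0.49 (SE; edgeR adjusted p = 0.000797), Il21r at 1.78 ± 0.24 (adjusted p = 0.00141) and Il12rb1 at 3.27 ± 0.46 (adjusted p = 0.00174). After background subtraction 3 of 13 rose and 6 fell, beside 12.7% and 16.4%. The responses differed for 5 of 14, with 3 values above 0 and 2 below, beside 35.8% of all genes, and for 3 of 13 after subtraction, 1 above 0 and 2 below, beside 11.8%.

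Of 10 further Th17 cytokines and surface genes, Sgk1 alone was called in unstimulated cells. Sgk1, a salt-sensing kinase known to sustain Il23r expression in Th17 cells, was higher in KLF2+ cells at 2.39 ± 0.36 (SE; edgeR adjusted p = 0.00997). In stimulated cells 5 of 10 were higher and 0 lower, beside 35.5% and 39.7% of all genes. They were led by the cytokine Il21 at 6.23 ± 0.38 (edgeR adjusted p = 8.4e-05), the proton-sensing receptor Gpr65 at 1.79 ± 0.33 (adjusted p = 0.00116) and the leukotriene receptor Ltb4r1 at 2.61 ± 0.62 (adjusted p = 0.00432). After background subtraction 2 of 8, Il21 and Ltb4r1, were higher and 0 lower, beside 16% and 38.5% of all genes. In the response of KLF2+ cells 4 of 10 rose, beside 19.7% of all genes, among them Il21 at 5.63 ± 0.35 (adjusted p = 8.9e-05) and Ccr4 at 1.87 ± 0.47 (adjusted p = 0.0158), and Sgk1 fell at -2.07 ± 0.35 (edgeR adjusted p = 0.00372). After background subtraction 1 of 8 rose, Il21, beside 12.7% of all genes, Sgk1 fell, and Ccr4 was at 1.35 (adjusted p = 0.0828).

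Of 6 partners and targets of AHR, 0 were called in unstimulated cells. After background subtraction 1 of 5 was, Ahrr, as higher in KLF2+ cells (edgeR adjusted p = 0.0371), with no more than 9.91 CPM in any library. In stimulated cells Tiparp was higher in KLF2+ cells at 0.46 ± 0.18 (SE; edgeR adjusted p = 0.0395), which turned to -0.73 (adjusted p = 0.00564) after background subtraction, and Cyp1b1 was lower at -2.21 ± 0.79 (edgeR adjusted p = 0.0279) with no more than 1.98 CPM in any library. After subtraction Ahrr was higher and 3 of 5, Tiparp, Arnt and Nqo1, were lower in stimulated KLF2+ cells, beside 16% and 38.5% of all genes. In the response of KLF2+ cells Cyp1a1, the classic AHR target, rose at 2.20 ± 0.47 (edgeR adjusted p = 0.00887), and Tiparp fell at -0.59 ± 0.18 (adjusted p = 0.0304). Cyp1a1 had 12.8 and 9.77 CPM in stimulated KLF2+ cells, 3.26 and 1.72 CPM in unstimulated KLF2+ cells, 12.5 and 11.3 CPM in stimulated KLF2- cells, and 2.32 and 2.84 CPM in unstimulated KLF2- cells. Both stimulated groups lay above both unstimulated groups, and the stimulated change in KLF2- cells was 2.20 ± 0.48 (edgeR adjusted p = 0.268). The response differed for 0 of the 6 genes, beside 35.8% of all genes, and for 1 of 5 after subtraction, beside 11.8%.

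Of 7 ligands of the receptors, 6 were tested. Il1rn, the IL-1 receptor antagonist, was the one called in unstimulated cells, at 3.11 ± 0.63 (SE; edgeR adjusted p = 0.0361) in KLF2+ over KLF2- cells, and did not pass after background subtraction (adjusted p = 0.108). In stimulated cells 3 of 6 were higher and 1 was lower in KLF2+ cells, beside 35.5% and 39.7% of all genes. Among the higher were Il1b at 4.44 ± 0.56 and Il1a at 3.72 ± 0.65 (SE; edgeR adjusted p = 0.00031 and 0.000911). Il12b, the chain shared by IL-12 and IL-23, was lower at -4.75 ± 0.56 (adjusted p = 0.000287). After background subtraction 3 of 5 were higher and 1 was lower, beside 16% and 38.5%. In the response of KLF2+ cells Il1b at 2.55 ± 0.48 and Il1a at 1.55 ± 0.54 rose and Il12b at -3.05 ± 0.54 fell (SE; edgeR adjusted p = 0.00522, 0.0468 and 0.00419), beside 19.7% of all genes called higher and 17.4% called lower. After background subtraction Il12b passed (adjusted p = 0.0101), and Il1b and Il1a did not (adjusted p = 0.0664 and 0.197). The responses differed for Il12b and Il1b, beside 35.8% of all genes. After subtraction they differed for Il12b alone (adjusted p = 0.0369, and 0.0585 for Il1b), beside 11.8%. In the KLF2- response none of the genes in these 5 lists was called.

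Sums of markers of other cells differed between the groups, in directions that varied by list and by state. Dendritic cell markers, 7 of 8 tested, summed to 51.3 and 44.3 CPM in stimulated KLF2+ cells, 65.7 and 63.0 CPM in unstimulated KLF2+ cells, 128 and 170 CPM in stimulated KLF2- cells, and 140 and 162 CPM in unstimulated KLF2- cells. Of these 7, Flt3, Zbtb46 and Batf3 were lower and Itgax was higher in KLF2+ cells in the unstimulated state, beside 1.25% and 1.07% of all genes. In the stimulated state 5 were lower and 1 higher, beside 39.7% and 35.5%. Clec9a, the one not tested, was at no more than 1.35 CPM in any library. Macrophage and monocyte markers summed to 39.8 and 72.2 CPM in stimulated KLF2+ cells, 807 and 1533 CPM in unstimulated KLF2+ cells, 26.5 and 36.6 CPM in stimulated KLF2- cells, and 25.8 and 17.6 CPM in unstimulated KLF2- cells. A single gene gave 705 and 1376 CPM of the sums in unstimulated KLF2+ cells. There 4 of 9 were higher and 0 lower, beside 1.07% and 1.25% of all genes. In stimulated KLF2+ cells 2 of 9 were higher and 4 lower, beside 35.5% and 39.7%. Of these 9, 1 had 0 reads in stimulated KLF2+ replicate 1 and 1 in stimulated KLF2- replicate 4. B cell markers summed to between 123 and 208 CPM in KLF2+ libraries and between 66.5 and 140 CPM in KLF2- libraries. Of 8, 2 were higher and 0 lower in unstimulated KLF2+ cells, beside 1.07% and 1.25% of all genes. Cd79a was 1 of the 2 (edgeR adjusted p = 0.046, and 0.156 after background subtraction). Ebf1, Cr2 and Fcer2a were at log2 fold changes of -0.84, -1.02 and -0.44 there and did not pass. In stimulated KLF2+ cells 3 were higher and 2, Ebf1 and Cr2, were lower, beside 35.5% and 39.7% of all genes. NK and innate-like T cell markers summed to 47.9 and 44.7 CPM in stimulated KLF2+ cells, 85.1 and 88.5 CPM in unstimulated KLF2+ cells, 85.1 and 110 CPM in stimulated KLF2- cells, and 84.7 and 75.0 CPM in unstimulated KLF2- cells. Klrb1c, 1 of 5, was higher in unstimulated KLF2+ cells (edgeR adjusted p = 0.0339, and 0.0827 after background subtraction), beside 1.07% of all genes. Zbtb16 was at -1.33 there (adjusted p = 0.106). In stimulated KLF2+ cells 0 were higher and 2 lower, among them Zbtb16 at -1.87 (edgeR adjusted p = 0.00161), beside 35.5% and 39.7% of all genes. Basophil and mast cell markers summed to between 17.1 and 70.0 CPM in KLF2+ libraries and between 31.5 and 46.4 CPM in KLF2- libraries, and the CD8 pair to between 11.4 and 26.5 CPM and between 11.9 and 22.2 CPM. Neither list had a member called in unstimulated cells. In stimulated KLF2+ cells 2 of the 5 basophil and mast cell markers were higher and 2, Prss34 and Ms4a2, lower, beside 35.5% and 39.7%. After background subtraction 0 were higher and the same 2 lower, beside 16% and 38.5%. Of the CD8 pair 0 were called in stimulated cells. Of 5 gamma-delta T cell markers the table held Sox13, at no more than 2.18 CPM. The part of these cells in the levels of the Th17 genes was not tested.

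Those of the 10 genes that averaged 10 CPM or more were compared by pattern over the 8 libraries, measured as the root mean square difference of centred log2(CPM + 1), where 0 is an identical pattern. Tmem176a and Tmem176b were the closest pair at 0.11, and each was the nearest of 10032 genes to the other. Il23r and Tmem176a were at 0.32, Il1r1 and Il17re at 0.33, and Ccr6 and Il17re at 0.38. Outside the 10 genes, Nrg2 and Klrb1b were near to Il17re at 0.28 each, and those nearest to Il23r were Gcnt2 at 0.17, Rgs12 at 0.22 and Arrdc4 at 0.27. Dscam, Efnb2 and Bmp2 were nearest to Il1r1 at 0.17 to 0.26, and Nr1d1 and Klrb1b were nearest to Ccr6 at 0.18 and 0.37. Arrdc4 and Cd83 were next to Tmem176a at 0.14 and 0.21, and Ccr7 and Cd83 were next to Tmem176b at 0.20 and 0.21. Rora was nearest to Asxl2, Impact and Lpin1 at 0.12 to 0.13, and Ahr was near to Vkorc1l1 and Kpna6 at 0.11. The median difference over all genes compared was between 0.49 for Ahr and 1.65 for Il1r1.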

How the data were processed

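RNA of 8 libraries was sequenced, with titles that name polyA RNA and a SMARTer stranded pico kit in the labels. Per the file headers, the authors counted exon reads with HOMER over mm10 RefSeq genes without depth adjustment. These deposited estimated counts are multiples of 0.5 and were rounded before fitting. The authors' deposited TPM table served for levels between genes and the limma alternatives. The submitters' processing notes name STAR 2.7.9, HOMER 4.11, SAMtools and DESeq2. Read filters and strand setting are not given in the sources used here.

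One edgeR 4.0.16 model (R 4.3.3) held the 8 libraries (filterByExpr, TMM, 1 coefficient per group, quasi-likelihood F test, Benjamini-Hochberg over 19146 genes, called under 0.05). SE is the absolute log2 fold change over the square root of F. Alternatives used DESeq2 1.42.0, limma 3.58.1 with pseudocounts of 1 and 0.1 (TPM of at least 1 in 2 libraries, or no filter) and other scalings. Background subtraction (1696.8 kb of receptor exons, 15281 genes) took its TMM factors from genes of at least 50 CPM. Further alternatives left out libraries, used fewer groups or held a replicate block. P-values measure the spread between samples, which may be technical. Replicates differed beyond counting noise. Genes and lists were chosen with earlier results of these data known. Each of the 10 genes is described, and from every list up to 3 called genes of smallest p; some genes that this rule took are not reported here. Fits were checked on simulated data.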

Additional observations from a re-analysis of the deposited data

Results flagged for a closer look

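The test of the difference between the responses to stimulation, KLF2+ minus KLF2-, passed for 17 of the 47 genes tested from the 5 pathway lists, on a background of 35.8% of all genes (edgeR adjusted p between 0.00223 and 0.046). The count of 17 of 47 thus lies near the share of all genes. On the log2 scale the values above 0 were 5.99 for Il21, 3.06 for Il1b, 3.02 for Il12rb1, 2.98 for Ikzf3, 2.75 for Batf, 2.55 for Irf4, 2.53 for Bhlhe40, 2.49 for Hif1a, 2.30 for Il21r, 2.29 for Il1r2, 1.75 for Gpr65, 1.43 for Maf and 1.15 for Stat3. Those below 0 were -3.27 for Il12b, -2.61 for Il17rd, -1.79 for Il6ra and -1.47 for Sgk1. After background subtraction 7 of the 17, Batf, Bhlhe40, Hif1a, Ikzf3, Il21r, Il6ra and Il12b, still passed (adjusted p between 0.0211 and 0.0418), and the other 10 did not. Of all genes 11.8% were called after subtraction, 3.58% above 0 and 8.23% below. Ikzf3 had 445 and 425 CPM in stimulated KLF2+ cells and 101 and 142 CPM in unstimulated KLF2+ cells, with 138 and 73.6 CPM in stimulated KLF2- cells and 231 and 237 CPM in unstimulated KLF2- cells.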

How the results depend on the processing

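Of the alternative values of the fold changes of the 10 genes, 664 kept direction and side of the threshold, 39 passed where the reported fit had not, 45 lost the call and 62 turned direction. The causes were not tested. Scaling moved the median of all genes in stimulated KLF2+ over KLF2- cells to -1.39 with TMM factors from genes of at least 50 CPM, against -0.19. Relative to that median Ahr was at 1.04 against 1.02, Il1r1 at -2.99 against -2.96 and Il23r at -1.14 against -1.17. In stimulated KLF2+ over KLF2- cells that scaling gave Ahr -0.35 and Il17f -0.47, and limma gave Ahr -0.51 and Il17f -0.78 with a pseudocount of 1, filtered or not, and -0.59 and -1.12 with 0.1. For the KLF2+ response of Il23r and Il17f that scaling gave -0.21 and -0.016, limma with 1 gave -0.29 and -0.41, and with 0.1 gave -0.37 and -0.67. For the KLF2- response it gave Rora 0.0036 and Il17re 0.16, background subtraction gave 0.012 and 0.13, and limma gave Il17re 0.17 and 0.18 with 1 and 0.1.

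For the difference in response, Ahr, Tmem176a, Tmem176b and Il17f were at -0.56, -0.50, -0.44 and -0.79 with that scaling, -0.24, -0.57, -0.52 and -0.21 after background subtraction, -0.62, -0.68, -0.60 and -1.04 by limma with 1, filtered or not, and -0.72, -0.70, -0.62 and -1.47 with 0.1, where Il23r was at -0.0094 and Il17a at -0.52. The genes called of the 10 for that difference, 0 in the reported fit, were 4, 1, 3 and 4 with that scaling, after subtraction and by limma with 1 and 0.1, and 1 by limma unfiltered. Over all genes the counts of calls for unstimulated KLF2+ over KLF2- cells, 444 as reported, were between 462 with the 50 CPM scaling and 1148 by DESeq2 in the fits of all libraries. For stimulated cells, 14396 as reported, they were between 8325 after subtraction and 15343 by unfiltered limma. For the KLF2+ response, 7096 as reported, they were between 3614 by unfiltered limma and 10851 with the block, and for the difference, 6855 as reported, between 1468 and 10857 with the same settings. For the KLF2- response, 0 as reported, they reached 74 by DESeq2 and 770 with the block.

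Leaving out 1 library at a time gave 0 to 6 of the 10 genes for unstimulated KLF2+ over KLF2- cells, 2 to 5 for the KLF2+ response and 0 to 1 for the difference. Over all genes it gave 33 to 1692, 2097 to 8971 and 70 to 9581. It moved Il17a between -0.66 and 5.36 in unstimulated KLF2+ over KLF2- cells, and in stimulated KLF2+ over KLF2- cells it moved Il17a between -0.087 and 2.85 and Il17f between -1.06 and 1.57. In the KLF2+ response the ranges were -0.0043 to 0.60 for Il23r, -0.39 to 0.17 for Tmem176a, -0.59 to 0.17 for Tmem176b and -1.34 to 1.29 for Il17f. In the KLF2- response they were -0.0067 to 0.46 for Il1r1, -0.58 to 0.13 for Il17re, -0.28 to 5.74 for Il17a and -0.14 to 1.05 for Il17f. For the difference they were -3.33 to 2.69 for Il17a and -1.71 to 0.92 for Il17f.

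Libraries of 1 number deviated together (correlation 0.631 in KLF2+ and 0.238 in KLF2- cells over 10395 genes), but with 2 pairs a comparison the numbers were not taken to pair samples. With the replicate block 6 of the 10 genes were called for the KLF2+ response, 1 for the KLF2- response (Ccr6, adjusted p = 0.0405) and 3 for the difference (Il23r 1.07, Il1r1 -0.98, Il17re -1.15), where Il17f was at -0.28.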
